A study of Mus musculus with 6 samples.

Results

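The 317 genes described here carry the mouse name Zfp, for zinc finger protein, followed by a number and at most 1 letter. They were chosen by that symbol in GENCODE M21 and by a mean of at least 100 normalised read counts over the 6 libraries, out of 16540 genes in the table. Of 400 genes with such a name in the annotation, 352 were in the table. Of these, 33 had a mean below 100, and 2 above it were annotated as pseudogenes and left out. All 317 were tested, and 316 are annotated as protein coding. The rule used the symbol and the mean level, not the test between the groups. That mean covers all the groups compared, so near the limit a change between them could decide whether a gene passed. Just inside the limit lay Zfp456 and Zfp69, with means of 100.3 and 103 normalised counts, and just outside it lay Zfp3 and Zfp985 with 95.9 and 87.9.

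The cells were NIH-3T3, a long-established fibroblast line from mouse embryos. All groups received lentivirus with Cas9 and 1 guide RNA, were selected with 2 ug/mL puromycin, were kept as polyclonal pools, and spent 48 h in 0.2 mM glutamine with 10% dialyzed serum. The control guide was R26 sg1, named after the Rosa26 locus. PC sg2 and PC sg5 are 2 guides named after pyruvate carboxylase, and each of the 3 guides had 2 libraries. Per its title, the series concerns the need of fibroblasts for pyruvate carboxylase in collagen production. Nothing in the labels tells if a guide’s libraries were grown as separate cultures. The p-values thus measure spread between libraries that may be technical.

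Most Zfp genes encode proteins with tandem C2H2 fingers, small folds held by a zinc ion between paired cysteines and histidines, which read DNA bases in the major groove. The largest class also carries a KRAB domain. It recruits the corepressor TRIM28 (KAP1), which brings the histone H3 lysine 9 methyltransferase SETDB1 and so silences retroviral elements and imprinted loci. KRAB genes lie in clusters that grew by gene duplication, and clusters of them differ between species. The name Zfp also covers unlike proteins, such as RNA-binding proteins and factors of mesenchymal and fat cell lineages.

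By the features of their annotated coding sequence, 180 of the 317 members held a KRAB pattern and 136 did not, and 1 (Zfp469) had no coding transcript in this annotation. A SCAN pattern, which marks a protein-protein interaction domain, was found in 7. The median transcript had a GC content of 43.7%, against 49.6% for the 11478 other genes with a mean of at least 100. The median exon length was 4.73 kb, against 4.49 kb. Per kb of exon, the members' median level was 177 normalised counts, against 421 for the other genes. KRAB members were lower than the rest of the family on this scale, with medians of 133 and 301 normalised counts per kb for those with and without the pattern. Members lay on 20 chromosomes, with 80 on chromosome 7, 44 on chromosome 17 and 31 on chromosome 13.

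Reads of some members are uncertain. For 81 members at least 10% of the 50-base stretches of the longest transcript also occur in a transcript of another gene, and for 37 at least 10% of the exon bases overlap another gene. In all, 85 members had either. The sources used here do not say whether counting used the strand, so a read in an overlap could belong to either gene, and these cannot be told apart.

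Recovered reads ranged from 22895172 (PC sg5 replicate 2) to 71710049 (control replicate 2) per library. Between the 2 libraries of a guide the chi-square per degree of freedom of the reads was 3.06 to 4.40, where counting error alone gives about 1. Each library was counted as its own replicate, but this spread does not show that they were separate cultures. Pcx, the gene of pyruvate carboxylase, fell in the 4 PC libraries to 17.9% of the control mean. The log2 fold change was -2.58 ± 0.07 (SE, limma Benjamini-Hochberg adjusted p = 4.30e-18). The guides were unequal in this: Pcx was at 316 and 375 normalised counts under PC sg2 and at 713 and 716 under PC sg5. That is a log2 difference of PC sg5 minus PC sg2 of 1.05 (limma adjusted p = 6.60e-07). All 10 fibroblast markers listed were in the table, with a summed level of 1813904 to 1880501 normalised counts under the control guide and 992059 to 1030680 under the PC guides. Of the 5 epithelial, 3 endothelial, 3 muscle and 3 adipocyte markers, 1 each was in the table, with at most 90.6 normalised counts in any library. Of 4 leukocyte markers 3 were in the table, at 908 to 953 under the control guide and 574 to 612 under the PC guides. The part of these marker changes in the results below was not tested.

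Zfp-named genes were more often higher than lower in the pools with a pyruvate carboxylase guide. Of the 317 members, 158 rose and 58 fell for both guides against control, and 101 did not pass an adjusted p of 0.05 by limma. That is 49.8% higher and 18.3% lower. Among all 16526 genes tested 34.3% were higher and 33.6% lower, and among the 11478 other genes with a mean of at least 100 the shares were 42.3% and 38.5%. The share that rose was above that of the other genes of its level range by less than the share that fell was below it. The median log2 fold change was 0.22 over the members and 0.03 over the other genes of that level, against -0.01 over all genes tested. With the 4 PC libraries all above both controls stood 171 members (53.9%, against 43.8% of the other genes), and with all 4 below stood 66 (20.8%, against 40.0%). Over all genes tested each of these shares was 36.6%. In bulk RNA, fewer cells of a type and less RNA per cell cannot be told apart.

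The shift was shared by the 4 PC libraries. Relative to the control mean, the median over the members was 0.21 and 0.22 on the log2 scale in the 2 PC sg2 libraries and 0.19 and 0.17 in the 2 PC sg5 libraries. In the controls it was 0.01 and -0.01. The other genes of that level had medians between 0.02 and 0.03 in the PC libraries. Members above the control mean made up 64.7% and 69.4% of the family under PC sg2, and 68.8% and 65.0% under PC sg5. Together the members took 0.811% and 0.806% of all counts under the control guide and 0.961% to 0.979% under the PC guides.

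**Figure D1:**
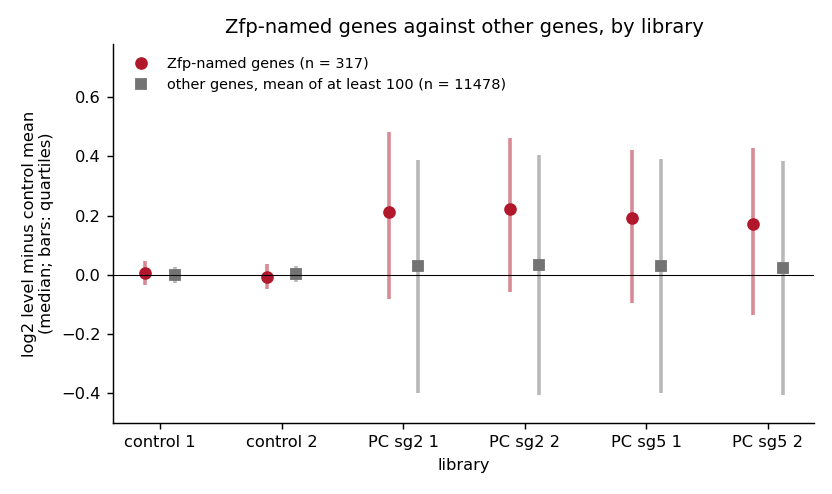
Median log2(normalised count + 1) minus the control mean (y axis) in each of the 6 libraries (x axis), for the 317 Zfp-named genes (red circles) and the 11478 other genes with a mean of at least 100 (grey squares); bars span the quartiles over genes. The red medians sit at 0.17 to 0.22 in the 4 PC libraries and the grey ones at 0.02 to 0.03.

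The changes were small. Only 13 members rose at least 2-fold (4.10%, against 5.06% of the other genes of that level and 6.48% of all genes tested) and 3 fell at least 2-fold (0.946%, against 8.91% and 11.3%). The middle 50% of members had log2 fold changes between -0.09 and 0.43, against -0.40 to 0.39 for the other genes. The extremes of the family were -1.79 and 1.67. The plot of the changes shows the family shifted to higher values, with fewer genes at the far left.

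**Figure D2:**
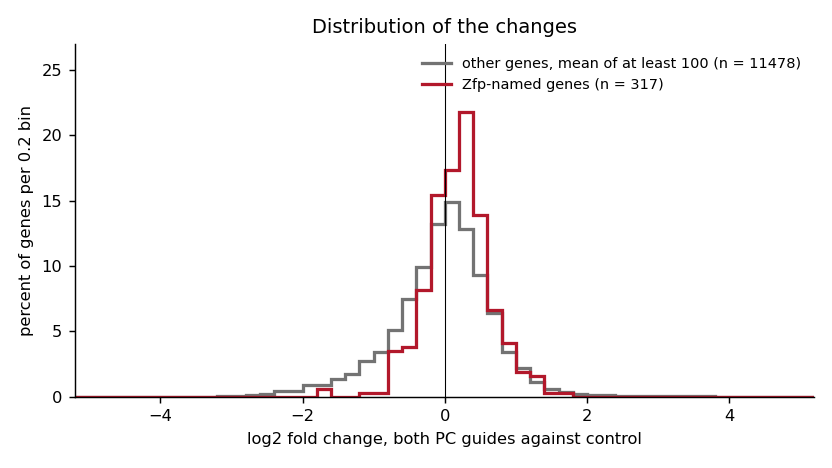
Percent of genes (y axis) in bins of 0.2 of the log2 fold change of both PC guides against control (x axis), for Zfp-named genes (red, n = 317) and other genes with a mean of at least 100 (grey, n = 11478). The red curve peaks right of 0 and holds less of the range below -0.4 than the grey one.

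In each of 5 ranges of abundance a smaller share of members than of other genes fell. Members with a mean of 100 to 300 normalised counts rose in 14 and fell in 8 of 53 cases, with a median of 0.06, against 373 and 611 of 1503 other genes and a median of -0.16. Between 600 and 1200, 40 of 78 members rose and 12 fell (median 0.19), against 658 and 634 of 1624 other genes (median 0.00). At 2400 or more, 35 of 55 rose and 11 fell (median 0.27), against 2479 and 1860 of 4971 (median 0.08). Fewer genes pass the test where counts are low, in the family as in the rest.

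**Figure D3:**
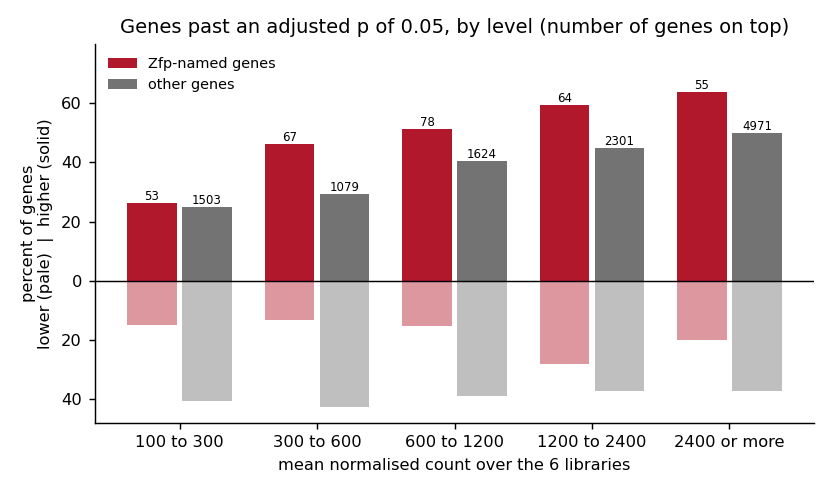
Percent of genes past an adjusted p of 0.05 for both PC guides against control (y axis; higher upward in solid, lower downward in pale) by mean normalised count (x axis), for Zfp-named genes (red) and other genes (grey), with the number of genes on each bar. In each of the 5 bins the pale red bar is shorter than the pale grey one.

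GC content was compared in 4 equal parts of the family. In the part with the lowest GC content 33 of 80 rose and 9 fell (median 0.15), and 317 of 661 other genes in that range rose and 208 fell (median 0.11). The share that rose was thus below that of the other genes in that part. In the part above 50.6%, 41 of 79 members rose and 19 fell (median 0.19), against 1913 and 2244 of 5077 other genes (median -0.05). Across the 317 members, the rank correlation of the log2 fold change was 0.01 with GC content and -0.11 with exon length, and 0.06 with the number of C2H2 fingers in 316. These are descriptions across genes, which share the 6 libraries. With the trends on length and GC content over all genes removed, 156 members were higher and 65 lower (49.2% and 20.5%). The other genes with a mean of at least 100 then had 41.8% and 39.0%. The members' median went from 0.22 to 0.17, and its distance to that of the other genes from 0.188 to 0.157.

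KRAB and other members had the same median change. Of the 180 with a KRAB pattern 83 rose and 29 fell (46.1% and 16.1%), with a median of 0.21. Of the 136 without it 74 rose and 29 fell (54.4% and 21.3%), also with a median of 0.21. Among the other genes with a mean of at least 100 these shares were 42.3% and 38.5%. The 3 members that fell at least 2-fold had no KRAB pattern, and the lowest KRAB member was Zfp354c at -0.71. Of the 7 members with a SCAN pattern 6 rose and none fell, from 0.18 in Zfp449 to 0.90 in Zfp444. The other one, Zfp213, had 0.09. By number of fingers, the 17 members with at most 1 had 9 higher and 6 lower (52.9% and 35.3%). The 57 with 16 or more had 32 higher and 8 lower (56.1% and 14.0%). No difference between these classes was tested.

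Zinc finger genes with other names were counted beside the family, against the 42.3% higher and 38.5% lower of other genes with a mean of at least 100. Another 35 genes with a KRAB pattern and a mean of at least 100 that are not named Zfp had 18 higher and 5 lower (51.4% and 14.3%), with a median of 0.20. Of 36 Zbtb genes, whose proteins join zinc fingers to a BTB domain, 22 rose and 5 fell (61.1% and 13.9%, median 0.28). Of 16 Klf and Sp genes 9 rose and 5 fell (56.2% and 31.2%, median 0.37), and of 16 Zkscan and Zscan genes 10 rose and 4 fell (median 0.29). Zc3h and Zfp36-like genes, a class set by name in which many proteins have CCCH fingers that bind RNA, had 9 higher and 10 lower of 20 (median -0.06). The Zdhhc genes, zinc-binding palmitoyltransferases, had 5 higher and 7 lower of 16 (31.2% and 43.8%, median 0.05). These groups are small, and no difference between them and the other genes was tested.

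Genes of the corepressor side of the KRAB pathway moved in both directions. Of 39 genes of the TRIM28 complex, its partners and heterochromatin, 19 rose and 13 fell (48.7% and 33.3%), none 2-fold, with a median of 0.05. These shares were near those of other genes with a mean of 2400 or more, 49.9% and 37.4%. Trim28 itself averaged 16135 normalised counts under the control guide and 16813 under the PC guides, with a log2 fold change of 0.06 ± 0.03 (SE, limma Benjamini-Hochberg adjusted p = 0.0471). That call was lost under 7 of 16 alternatives, among them edgeR (0.06, adjusted p = 0.0555) and the fits without control replicate 2 (0.04), PC sg2 replicate 2 (0.05), PC sg5 replicate 1 (0.06) or PC sg5 replicate 2 (0.06). Setdb1 fell from 6042 to 5120 (log2 fold change -0.24 ± 0.04, SE) and Atf7ip, its binding partner, fell from 5161 to 3733 (-0.47). Morc2a, which acts with the HUSH silencing complex, and Fam208a, of that complex, rose by 0.70 and 0.69. Mphosph8 and Pphln1, also of that complex, had 0.23 and 0.05. The DNA methyltransferase gene Dnmt1 fell by 0.41 on the log2 scale and its partner Uhrf1 by 0.50. Dnmt3a fell by 0.36 and Dnmt3b rose by 0.65. The largest rise of the list was that of Suv39h2 (0.74) and the largest fall that of Chd3 (-0.69). Except for Trim28 and Setdb1, the genes named here were not fixed in advance.

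Of the 10 members that rose most, 6 have a KRAB pattern, near the share in the whole family (180 of 317). Zfp566, a KRAB gene (ENSMUSG00000078768, GRCm38 chromosome 7, 30077337 to 30090527, minus strand), was at 296 and 234 normalised counts under the control guide, at 781 and 818 under PC sg2 and at 876 and 887 under PC sg5. All 4 PC libraries stood above both controls, with a log2 fold change of 1.67 ± 0.09 (SE, limma Benjamini-Hochberg adjusted p = 3.93e-13). Overlap with Gm26920 covers 17.9% of its exon bases. Zfp184, a KRAB gene with 18 C2H2 fingers (ENSMUSG00000006720, chromosome 13, 21945094 to 21960779, plus strand), was at 163 and 145 under the control guide, at 464 and 436 under PC sg2 and at 446 and 370 under PC sg5. It rose by 1.47 ± 0.12 (SE, limma Benjamini-Hochberg adjusted p = 2.08e-10).

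Zfp608 was the most abundant of the members that at least doubled. It was at 2433 and 2380 normalised counts under the control guide, at 6263 and 6294 under PC sg2 and at 5977 and 5515 under PC sg5. The groups did not overlap, and the log2 fold change was 1.32 ± 0.04 (SE, limma Benjamini-Hochberg adjusted p = 6.01e-18). Zfp697 (ENSMUSG00000050064, chromosome 3, 98382461 to 98753812, plus strand), with 11 fingers and no KRAB pattern, went from 390 and 439 to 1081 and 1067 under PC sg2 and to 956 and 1005 under PC sg5, a rise of 1.31 ± 0.07. Zfp930, a KRAB gene, went from 676 and 563 to 1548 and 1471 under PC sg2 and to 1573 and 1443 under PC sg5, a rise of 1.29 ± 0.07. In these 3 genes the PC libraries lay close together and far from both controls.

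Some of the other large rises carry shared reads. Zfp960 and Zfp97, neighbours on chromosome 17, rose by 1.10 each, and 82.7% and 81.3% of their 50-base stretches occur in another gene, for each mostly in the other of the pair. Zfp593 rose by 1.22, with 77.9% of its exon bases shared with E130218I03Rik, and Zfp428 rose by 1.29, with 17.7% shared with AC161166.1. Zfp850, a KRAB gene with 16 fingers, rose by 1.10 and shares 1.39% of its stretches. The 3 remaining members that at least doubled, named after their values were seen, were Zfp800 (1.09), Zfp712 (1.01) and Zfp661 (1.01). Without the 81 members with shared stretches, 8 of 236 members rose at least 2-fold.

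Of the 4 largest falls, 3 were in a list of 5 members that were named whatever their result. That list was drawn up for fibroblast and fat cell lineage factors with earlier results of these data known, so it is not independent of the falls. A lineage role is given here only for Zfp467, Zfp521 and Zfp516, not for Zfp503 and Zfp703. Of the other genes with a mean of at least 100, 38.5% fell. Zfp467 (ENSMUSG00000068551, chromosome 6, 48427697 to 48445825, minus strand), known for promoting fat over bone cell fate, was at 1099 and 1091 normalised counts under the control guide, at 314 and 290 under PC sg2 and at 336 and 329 under PC sg5. The PC mean was 29.0% of the control mean, and the log2 fold change was -1.79 ± 0.09 (SE, limma Benjamini-Hochberg adjusted p = 5.04e-14). Zfp503 (ENSMUSG00000039081, chromosome 14, 21983959 to 21989601, minus strand), a transcriptional corepressor without C2H2 fingers by the pattern used, was at 3847 and 4071 under the control guide, at 1900 and 2020 under PC sg2 and at 1864 and 1939 under PC sg5. It fell by 1.04 ± 0.05 on the log2 scale (SE, limma Benjamini-Hochberg adjusted p = 8.47e-15). Zfp521, known for holding back adipocyte fate, was at 5406 and 5594 under the control guide, at 2870 and 2837 under PC sg2 and at 2794 and 3048 under PC sg5, a fall of 0.93 ± 0.04 on the log2 scale. In all 3 the PC libraries stood below both controls.

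The other 2 of that list did not fall. Zfp516, a regulator of brown fat genes, rose from 8355 ± 121 (SD, n = 2) to 10640 ± 162 (SD, n = 4) normalised counts, a log2 fold change of 0.35 ± 0.03 (SE). Zfp703, a corepressor related to Zfp503, was at 4717 and 4749 under the control guide, at 4677 and 4737 under PC sg2 and at 4397 and 4181 under PC sg5. Its log2 fold change was -0.08 ± 0.03 (SE, limma Benjamini-Hochberg adjusted p = 0.0626), and the PC sg2 libraries overlapped the controls. It was past the threshold without PC sg5 replicate 1 (-0.09, limma adjusted p = 0.0229) and by edgeR (-0.08, adjusted p = 0.0470), as with quantile normalisation (-0.11, adjusted p = 0.0105) or over only genes with a mean of at least 100 (adjusted p = 0.0475). Overlap covers 13.5% of its exon bases.

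Zfp395 (ENSMUSG00000034522, chromosome 14, 65358389 to 65398930, plus strand) was the second lowest member. It was at 4147 and 4035 normalised counts under the control guide, at 1338 and 1277 under PC sg2 and at 1362 and 1338 under PC sg5. The PC mean was 32.5% of the control mean, with a log2 fold change of -1.62 ± 0.05 (SE, limma Benjamini-Hochberg adjusted p = 7.04e-18). After Zfp503 and Zfp521, the next lowest were Zfp827 (-0.76) and the KRAB genes Zfp354c (-0.71), Zfp251 (-0.69), Zfp324 (-0.68) and Zfp820 (-0.67). In each of these the 4 PC libraries stood below both controls.

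**Figure D4:**
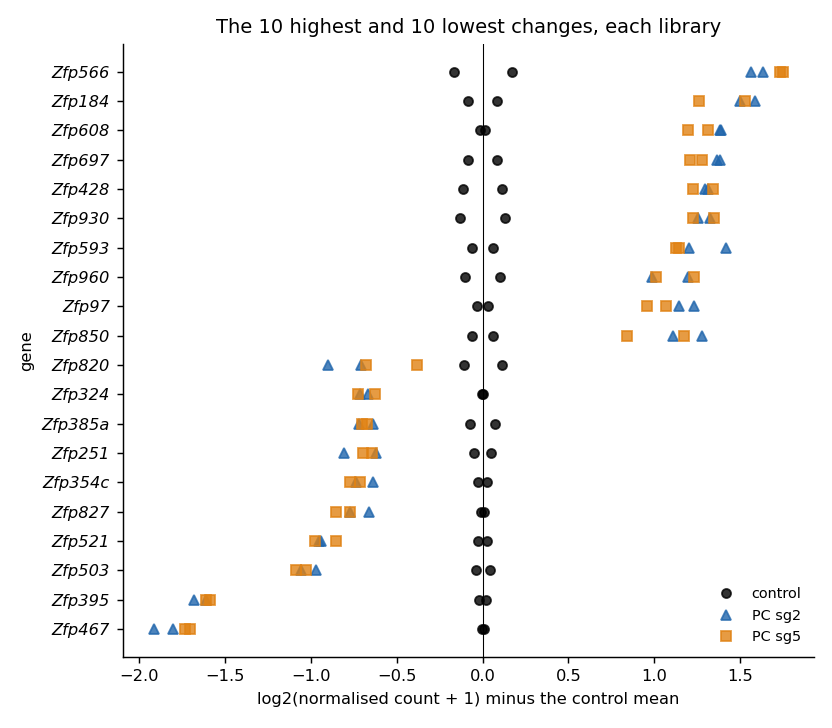
log2(normalised count + 1) minus the control mean (x axis) in each library for the 10 members with the highest and the 10 with the lowest changes (y axis), as black circles for control, blue triangles for PC sg2 and orange squares for PC sg5, 2 libraries each. The PC libraries lie on 1 side of both controls for each gene, which the choice of these genes required.

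Members known as RNA or spindle proteins moved in both directions. Zfp346, which binds double-stranded RNA, was at 1448 and 1426 normalised counts under the control guide, at 2380 and 2537 under PC sg2 and at 2186 and 2388 under PC sg5. It rose by 0.72 ± 0.05 (SE, limma Benjamini-Hochberg adjusted p = 2.10e-11). Zfp106, an RNA-binding protein and the member with the most reads, rose by 0.44 ± 0.03, with 26.1% of its exon bases shared with Gm26899. Zfp638 and Zfp830, which take part in splicing, rose by 0.26 and 0.40. Of this list of 7, these 4 rose and 3 fell. Of the other genes with a mean of at least 100, 42.3% rose and 38.5% fell, so counts in both directions are not particular to this list.

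The 3 that fell have unlike roles. Zfp207, a spindle assembly factor that binds Bub3, was at 10030 and 9860 normalised counts under the control guide, at 7785 and 7693 under PC sg2 and at 7881 and 7667 under PC sg5. It fell by 0.36 ± 0.03 on the log2 scale (SE, limma Benjamini-Hochberg adjusted p = 2.94e-10). Zfp36, whose CCCH protein tristetraprolin speeds the decay of AU-rich messages, was at 743 and 786 under the control guide, at 620 and 569 under PC sg2 and at 592 and 607 under PC sg5, a log2 fold change of -0.36 ± 0.08. Zfp385a, an RNA-binding partner of p53, fell by 0.68 ± 0.05. The groups did not overlap in any of these 3 genes.

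Among KRAB genes known for imprints and proviruses, 2 rose, 1 fell and 2 did not pass. The shares of other genes with a mean of at least 100 were 42.3% higher and 38.5% lower. Zfp568, a repressor of an Igf2 transcript, was at 1454 and 1385 normalised counts under the control guide, at 2286 and 2247 under PC sg2 and at 2002 and 2309 under PC sg5. It rose by 0.64 ± 0.05 (SE, limma Benjamini-Hochberg adjusted p = 8.06e-10). Zfp445, which guards imprints, was at 5151 and 5313 under the control guide, at 6212 and 6191 under PC sg2 and at 6046 and 6333 under PC sg5, a rise of 0.24 ± 0.03. Zfp57, the other imprint guardian of the list, went the opposite way from Zfp445.

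Zfp57 was at 3132 and 2932 normalised counts under the control guide, at 2866 and 2712 under PC sg2 and at 2568 and 2623 under PC sg5. Its log2 fold change was -0.17 ± 0.04 (SE, limma Benjamini-Hochberg adjusted p = 0.00133), a call that was lost without control replicate 1 (-0.12, adjusted p = 0.0670). Zfp809, which silences murine leukemia provirus, was at 670 and 569 under the control guide, at 644 and 529 under PC sg2 and at 539 and 464 under PC sg5. The groups overlapped, with a log2 fold change of -0.19 ± 0.10 (SE, limma Benjamini-Hochberg adjusted p = 0.0887). It was past the threshold without control replicate 2 (-0.31, adjusted p = 0.0391), without PC sg2 replicate 1 (-0.26, adjusted p = 0.0297) without PC sg5 replicate 1 (-0.25, adjusted p = 0.0338), with length and GC trends removed (-0.23, adjusted p = 0.0409) and with the replicate block (adjusted p = 0.0385). Without control replicate 1 it was -0.07 and without PC sg2 replicate 2 it was -0.12. Zfp932 had 0.10 ± 0.07 (adjusted p = 0.199), or 0.06 without PC sg5 replicate 1, and 45.2% of its stretches are shared.

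Broadly acting factors moved in both directions. Zfp143, an activator at many housekeeping and small RNA promoters, was at 671 and 719 normalised counts under the control guide, at 1049 and 988 under PC sg2 and at 1055 and 1107 under PC sg5. It rose by 0.59 ± 0.07 (SE, limma Benjamini-Hochberg adjusted p = 5.16e-08). Zfp148, Zfp384, Zfp451 (a SUMO ligase) and Zfp292 rose by 0.31, 0.30, 0.29 and 0.29, with 13.1% of the stretches of Zfp384 shared with Gm11405. Zfp281, Zfp217 and Zfp462 fell by 0.16, 0.13 and 0.25 on the log2 scale, and Zfp91 (0.04) and Zfp335 (0.09) did not pass the threshold. The call of Zfp217 was lost without control replicate 2 (-0.11, adjusted p = 0.0963) and when scaled without the 50 most abundant genes (-0.09, adjusted p = 0.0647). Under that scaling Zfp91 (0.08, adjusted p = 0.0408) and Zfp335 (0.13, adjusted p = 0.0132) passed, and Zfp335 also passed with length and GC trends removed (0.11, adjusted p = 0.0354). The value of Zfp91 ranged from 0.01 to 0.07 with 1 PC library left out. Of this list of 10, 5 rose and 3 fell, where 42.3% of other genes with a mean of at least 100 rose and 38.5% fell.

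The members with the most reads after Zfp106 and Zfp516 were Zfp706, Zfp740 and Zfp207, with means between 8486 and 9628 normalised counts. Zfp706 rose by 0.34 ± 0.03 and Zfp740 by 0.11 ± 0.03 (SE). The call of Zfp740 was lost without the intensity trend of limma (adjusted p = 0.0840). Per kb of exon, Zfp706 and Zfp740 had 1933 and 1828 normalised counts and Zfp106 had 1658. At the other end, Zfp69 and Zfp456, just inside the limit of the rule, had log2 fold changes of 0.43 ± 0.19 and -0.32 ± 0.21. That of Zfp456 was -0.19 without PC sg5 replicate 1. Zfp69 passed (adjusted p = 0.0464) but not without control replicate 1 (0.42), control replicate 2 (0.44), PC sg2 replicate 2 (0.37) or PC sg5 replicate 2 (0.41), nor by DESeq2 (adjusted p = 0.102) or with the replicate block (adjusted p = 0.0513).

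By position, 168 members lay in 22 clusters, runs of at least 4 annotated Zfp-named genes with gaps of at most 500 kb. Of them 81 rose and 27 fell (48.2% and 16.1%, median 0.22). Of the 149 outside clusters 77 rose and 31 fell (51.7% and 20.8%, median 0.19). Other genes with a mean of at least 100 had 42.3% and 38.5%. More members rose than fell in 15 of the 22 clusters, more fell in 2, and the counts were equal in 5. Among the 14 clusters with at least 5 members, 11 held at least 1 risen and 1 fallen gene. Clustered genes are often close copies, and reads of copies can be split between them.

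The clusters named here were chosen after their values were seen. In the cluster of chromosome 7 from 29768552 to 30169750, 9 of 14 members rose and 3 fell. It holds Zfp566 (1.67), Zfp84 (0.95) and Zfp568 (0.64), but also Zfp14 (-0.59). In the cluster of chromosome 6 from 47819266 to 48623227, 6 of 8 members rose, led by Zfp956 (0.99), while Zfp467 (-1.79) was the lowest gene of the family. On chromosome 7 from 127233061 to 127885996, 7 of 10 rose and none fell. The opposite balance was seen on chromosome 7 from 12415153 to 12985714, where 2 of 7 rose and 3 fell, among them Zfp324. The largest cluster, on chromosome 17 from 21008903 to 23599487, had 8 higher and 3 lower of 23 members, with a median of 0.12.

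**Figure D5:**
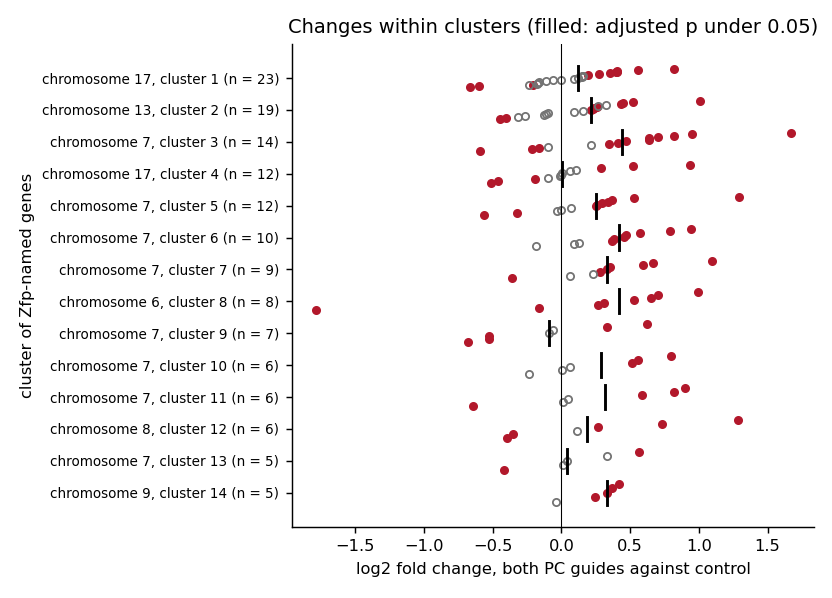
log2 fold change of both PC guides against control (x axis) for each member in the 14 clusters with at least 5 members (y axis); filled red points passed an adjusted p of 0.05, open grey ones did not, and the black bar is the cluster's median. In 11 of the 14 clusters there is at least 1 risen and 1 fallen gene.

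Promoters are shown for members at both ends of the changes and for members that rose and share a motif. RefSeq promoters (GRCm38.p6, 250 bases before to 50 after the start) matched 264 of the 317 members by symbol, with 318 entries. The members' promoters had a median GC content of 55.3% and 15 CG pairs, against 61.3% and 21 for other genes with a mean of at least 100. KRAB members had 52.7% and 10, and the other members 62.0% and 21. The sequences run 5′ to 3′ in the direction of the gene, and capitals mark the letters of the motifs searched. They belong to Zfp566, the highest member (chr7:30090461-30090760, minus strand), Zfp655 (chr5:145231492-145231791, plus strand), Zfp787 (chr7:6155916-6156215, minus strand), Zfp945 (chr17:22867085-22867384, minus strand) and Zfp467, the lowest member (chr6:48445041-48445340, minus strand).
Zfp566: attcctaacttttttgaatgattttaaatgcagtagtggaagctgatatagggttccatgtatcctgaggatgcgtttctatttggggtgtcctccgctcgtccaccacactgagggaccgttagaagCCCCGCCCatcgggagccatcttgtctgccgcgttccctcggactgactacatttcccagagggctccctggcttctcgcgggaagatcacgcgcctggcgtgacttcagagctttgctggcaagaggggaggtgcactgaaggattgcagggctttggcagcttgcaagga
Zfp655: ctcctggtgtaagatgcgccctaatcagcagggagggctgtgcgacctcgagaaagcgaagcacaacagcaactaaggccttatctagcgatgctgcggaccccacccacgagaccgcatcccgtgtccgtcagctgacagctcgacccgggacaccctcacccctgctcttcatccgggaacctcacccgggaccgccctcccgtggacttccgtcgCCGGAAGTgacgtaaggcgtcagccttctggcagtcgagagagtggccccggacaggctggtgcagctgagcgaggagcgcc
Zfp787: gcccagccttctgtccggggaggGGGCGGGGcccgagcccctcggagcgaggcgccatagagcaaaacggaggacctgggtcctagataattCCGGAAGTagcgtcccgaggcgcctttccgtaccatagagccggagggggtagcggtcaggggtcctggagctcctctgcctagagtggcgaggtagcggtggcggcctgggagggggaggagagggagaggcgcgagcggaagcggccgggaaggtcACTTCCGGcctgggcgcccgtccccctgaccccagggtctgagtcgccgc
Zfp945: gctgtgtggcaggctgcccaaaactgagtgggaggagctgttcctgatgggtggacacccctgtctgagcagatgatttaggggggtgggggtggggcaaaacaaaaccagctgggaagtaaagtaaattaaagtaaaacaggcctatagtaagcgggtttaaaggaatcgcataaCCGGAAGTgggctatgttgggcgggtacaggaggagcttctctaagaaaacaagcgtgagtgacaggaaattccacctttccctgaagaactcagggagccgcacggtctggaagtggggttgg
Zfp467: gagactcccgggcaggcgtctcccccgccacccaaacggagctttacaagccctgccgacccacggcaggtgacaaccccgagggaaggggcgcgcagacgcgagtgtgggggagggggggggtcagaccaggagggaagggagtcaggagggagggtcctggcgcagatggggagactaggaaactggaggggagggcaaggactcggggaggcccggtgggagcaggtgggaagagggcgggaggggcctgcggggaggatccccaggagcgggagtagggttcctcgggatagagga

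The 3 middle promoters were chosen as the highest changes among members with 1 promoter entry that hold CCGGAAGT, a motif of ETS factors. Their log2 fold changes were 0.93, 0.82 and 0.82. Promoters on chromosome 18 were left out when choosing those shown. Searched on both strands, that motif was in 10.7% of the members' promoters, in 8.53% of those of other genes with a mean of at least 100 and in 3.89% of all 32851 promoters. Among members that rose it was in 24 of 159 promoters (15.1%), and among those that fell in 4 of 56 (7.14%). The split into risen and fallen members went the other way for GGGCGGGG (21.4% and 28.6%) and the YY1 motif (2.52% and 3.57%), and no split was tested. GGGCGGGG, a motif of Sp and Klf factors, was in 11.6% of KRAB promoters, 31.4% of those of the other members, 33.4% of those of other genes with a mean of at least 100 and 17.6% of all. The promoter of Zfp566 holds 1 match, and that of Zfp467 holds none of the motifs searched.

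The other motifs searched were found in few promoters. The E-box CACGTG was in 6.60% of the members' promoters, 10.2% of those of other genes with a mean of at least 100 and 7.15% of all, with 8.18% for risen and 3.57% for fallen members. TGACGTCA, the cAMP response element, was in 3.46%, 3.14% and 1.79%, with 4.40% for risen and 1.79% for fallen members. TGATGNAA, a composite of C/EBP and ATF sites, was in 2 of 318 members' promoters (0.629%), 2.22% and 3.97%, in 0 of 159 for risen and 1 of 56 for fallen members. The motifs of NRF1 and YY1 were each in 3.14% of the members' promoters, in 2.14% and 2.44% of those of other genes with a mean of at least 100, and in 0.971% and 0.986% of all. The NRF1 motif was in 5 of 159 promoters of risen and 0 of 56 of fallen members. No motif contains the letters of another, and a match describes letters, not binding.

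Each guide alone gave counts of the same order. Against the shared control, 154 members rose and 48 fell with PC sg2 (48.6% and 15.1%, against 41.3% and 36.9% of the other genes with a mean of at least 100 and 32.9% and 31.6% of all genes tested), with a median of 0.23. With PC sg5, 147 rose and 65 fell (46.4% and 20.5%, against 40.5% and 37.2%, and 32.6% and 31.8% of all genes tested), with a median of 0.19. Both comparisons use the same 2 controls.

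Tested directly, none of the 317 members passed the threshold between the guides by limma, edgeR or DESeq2, where 0.242% of all genes tested and 0.331% of the other genes with a mean of at least 100 were past the threshold by limma. At an unadjusted p under 0.05 stood 25 members by limma, 22 by edgeR and 20 by DESeq2. By limma that is 7.89% of the members, below the 12.1% of other genes with a mean of at least 100 and the 10.6% of all genes tested. The smallest p-values were those of Zfp865 and Zfp526. Zfp526 was at 796 and 886 normalised counts under the control guide, at 926 and 949 under PC sg2 and at 786 and 714 under PC sg5, a log2 difference of PC sg5 minus PC sg2 of -0.32 (limma adjusted p = 0.106). Zfp865 had a difference of -0.21 (adjusted p = 0.0913), with 28.4% of its exon bases shared. Without PC sg5 replicate 1, these 2 (-0.39 and -0.24) and Zfp266 (-0.20), named after their values were seen, passed the threshold. With the replicate block Zfp526 and Zfp865 did. Pcx itself was higher under PC sg5 than under PC sg2, by 1.05 on the log2 scale (limma adjusted p = 6.60e-07).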

How the data were processed

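RNA of 6 NIH-3T3 libraries (3 guides, 2 libraries each, grouped by their titles) was sequenced after poly(A) selection and NEBNext Ultra library preparation, per the labels' protocols. Per the submitters' processing notes, the tools include featureCounts, STAR, DESeq2, Trimmomatic and bcl2fastq 2.17, and the build is GRCm38. Settings, annotation and strand use: not given in the sources used here. What the authors deposited is 1 signal table of normalised read counts. Dividing by 1 step per library turned 100% of the values into whole reads, within a tolerance of 0.01. Such values compare a gene between libraries. The floor of 3 reads lay between 2.18 and 6.41 normalised counts, and it covers counting error only.

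limma 3.58.1 in R 4.3.3 was fitted on log2(normalised count + 1) over all 16526 genes that reached 10 normalised counts in 2 or more libraries. It used 3 groups, an intensity trend and 3 residual degrees of freedom. Each gene's spread was moderated by empirical Bayes with that of the other genes, with a median of 17.3 prior degrees of freedom. The p-values thus rest largely on spread borrowed from other genes. Tests were two-sided with Benjamini-Hochberg adjustment over all genes, and 0.05 was the threshold. The log2(value + 1) scale of the fold changes makes those of low genes smaller. The fit was tested on simulated data. Symbols were matched by ID to GENCODE M21 (16491 matched, 49 did not). KRAB, SCAN and C2H2 patterns were searched in translated GENCODE coding sequences, since no protein table was used here.

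Named genes are the 10 highest and 10 lowest changes past the threshold with groups apart, the 5 largest differences between guides past it (none), the 5 with the most reads, those next to the limit, and lists fixed by function (of which Zfp423 and Zfp708 were no members). Members and lists were chosen with earlier results of these data known. Alternatives used edgeR 4.0.16, DESeq2 1.42.0, other scalings, filters, member sets and left-out libraries.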

Additional observations from a re-analysis of the deposited data

How the results depend on the processing

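Each count of higher and lower members, for both guides and for each guide, stayed within 1.5 times its value under all alternatives run, and their median kept its sign. With all libraries and all 317 members, 150 to 178 were higher for both guides (47.3% to 56.2%) and 51 to 65 lower (16.1% to 20.5%). Among the other genes with a mean of at least 100, 38.8% to 45.6% were then higher and 35.2% to 39.1% lower. Without members that overlap or share stretches, 125 of 232 were higher (53.9%) and 47 lower (20.3%). The SD of the 4 PC libraries’ medians was 0.0230. The median moved by more than that under quantile normalisation (0.26), with scaling without the 50 most abundant genes (0.26) and with length and GC trends removed (0.17). It also did without members that overlap or share stretches (0.25, an alternative chosen after seeing the data). Without control replicate 2 the median was 0.193, a move just under that SD. Its distance to the other genes with a mean of at least 100 stayed between 0.16 and 0.22. The count of members that differ between the guides was 0, except 2 with the replicate block and 3 at most when 1 library was left out (0 to 3). Same-numbered libraries did not deviate together (r between -0.02 and 0.03). This cannot tell whether they were handled together, which the labels do not say. The block gave 159 higher and 59 lower members. Of 50 named genes with 16 alternatives each, 771 values kept their direction and side of the threshold, 17 lost a call (in 5 genes), 12 gained one (in 4 genes) and none reversed. All 112 counts for KRAB, non-KRAB and corepressor genes stayed within 1.5 times. PC sg5 replicate 2 has the fewest reads, and members near 100 normalised counts are the least precise.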
